A study of Mus musculus with 19 samples.

Results

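The genome of an inbred mouse strain is nearly the same in every animal, but strains differ from each other at many places, both in single bases and in the number of copies of a stretch of DNA. In a line of mixed 129 and C57BL/6 descent each animal inherits its own mosaic of long strain segments, so neighboring differences travel together from parent to offspring. Array comparative genomic hybridization (aCGH) sets the DNA of a sample, in one dye, against that of a control, in another, on short probes. Fewer copies of a stretch and a mismatch to the probe both lower the signal, and which of them underlies a low ratio here was not tested. A difference that an animal was born with is present in its normal tissue as well as in its tumors.

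The probes described here are those whose ratio differed most between unaffected livers of different mice. They were chosen by the SD of the log2 ratio over the unaffected livers of 6 female mice, as the top 1% of the autosomal probes outside a 62 to 77 Mb stretch of chromosome 11. Of 221455 autosomal probes, 1826 lay in that stretch and 754 others were not measured in all 6 livers. This left 218875 probes, of which 2189 were members. The SD over the 6 livers had a median of 0.836 in members and 0.210 in all eligible probes, and the threshold was 0.658. The last member, A_67_P04746670 on chromosome 2, had an SD of 0.658 with livers between −0.59 and 1.12, and the first probe outside, A_67_P08983938 on chromosome 18, had an SD of 0.658 with livers between −1.23 and 0.66. These SDs and all liver values of the 6 female mice chose the members and are therefore given as a description, with no test. All positions are on NCBI37, the build named in the file headers.

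The series has 19 arrays, 1 per sample, from 9 mice, with 9 unaffected livers, 4 hepatocellular adenomas (HCA) and 6 hepatocellular carcinomas (HCC). All mice carried floxed Mad2l1 on both alleles (Mad2(f/f) in the labels) and AlbuminCre, which drives recombination in hepatocytes, and the line descends from 129 embryonic stem cells and C57BL/6 mice. The female mice were 2430 (Trp53 f/f, 16.9 months), 6199 (f/f, 12 months), 5884 (f/+, 14.2 months) and 5901 (f/+, 12 months), each with 1 HCA, and 6240 (16.2 months, 2 HCCs called tumors 4 and 2) and 6602 (13.2 months, 1 HCC), which carried a mutant and, by the labels, no floxed Trp53. Mice 6487 (12.8 months), 6565 (14.7 months) and 6642 (12.3 months) were males with this mutant and 1 HCC each. The study calls the mutant R246S, the name used here, while the labels number the residue differently in the genotype and in the strain name. Sample DNA was in the Cy5 channel, and liver DNA of control animals of the other sex, also of mixed C57BL/6 and 129 descent, was in the Cy3 channel, so females and males were set against different control DNA. The mean ratio of chromosome X was 0.32 to 1.07 in samples of females and −1.06 to −0.90 in samples of males, and that of Y was −4.19 to −2.42 and 2.18 to 3.76, as the labeled sexes imply. The arrays were scanned on 3 days. The female livers of floxed mice were scanned on days 1 and 2 and those of 6240 and 6602 on day 3, and the same holds for their tumors, so among females Trp53 genotype, tumor type and scan day cannot be told apart. The male samples of 6487 were scanned on day 2 and those of 6565 and 6642 on day 3. The spread of ratios between neighboring probes, a measure of noise, was 0.18 to 0.42 over the 19 arrays and was highest in liver 6240.

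Ratios of single probes, clusters and stretches are on the log2 scale relative to the autosomal median of the array, so a gain or loss of the chromosome is part of a tumor's value. The median of chromosome 12, for example, was −0.34 in HCA 6199 and 0.01 in its liver, and −0.32 in HCA 2430 and −0.01 in its liver.

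Members were found on every autosome but not evenly. The share of probes that were members was lowest on chromosome 8 (0.441%, 50 of 11336) and highest on chromosome 12 (2.12%, 218 of 10263), with a median over the autosomes of 0.926%. Of 256 windows of 10 Mb, 5 held no member and 6 had more than 3%. The densest was the window from 110 to 120 Mb on chromosome 12, with 84 of 1188 probes (7.07%), followed by 20 to 30 Mb of chromosome 12 (3.77%), 30 to 40 Mb of chromosome 15 (3.71%) and 130 to 140 Mb of chromosome 6 (3.54%). The distal end of chromosome 12 is known to carry the immunoglobulin heavy chain genes. No gene positions on NCBI37 were at hand, so probes are named by position and not by gene. The marker loci of lymphocyte DNA could not be placed for the same reason.

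Most members stood alone. A cluster was a run of at least 3 members with at most 5 other probes between neighbors. There were 51 clusters on 15 autosomes with 242 members (11.1%), while 1691 members had no other member near and 128 runs held 2. The next probe along the chromosome was a member for 4.89% of members and for 0.997% of all eligible probes. Clusters spanned 13.1 to 1015 kb, with a median of 68.7 kb. In 37 of the 51, the cluster means of the 6 livers differed by more than 2 on the log2 scale.

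A member was more often set by 1 low liver than by 1 high liver. When the 6 livers were split at the largest gap between them, 1 liver lay below the gap in 1018 members (46.5%, against 31.1% of all eligible probes) and 1 above it in 450 members (20.6%, against 26.6%). That gap took more than 0.5 of the range in 62.7% of members and in 30.6% of all eligible probes. The lowest liver had a median of −1.41 over members and the highest 0.95. Mouse 2430 was at least 1 below the median of the 6 livers in 482 members and 5884 in 508. The other mice were that low in 187 to 279 members. The clusters divided the mice differently. In them, 2430 accounted for 117 of such low values, 6199 for 56, 6240 for 39, 6602 for 26, 5884 for 18 and 5901 for 6.

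The difference between mice was carried by the sample channel. Over the 6 livers the SD of the log2 Cy5 signal had a median of 0.811 in members and 0.194 in the other probes, and the SD of the Cy3 signal, which came from control DNA, had a median of 0.217 and 0.151. The sample channel carried 92.5% (median) of the variance of the ratio in members, 96.5% in members in clusters and 67.2% in other probes. Members were also dim. The control signal of a member was 0.453 times the array median, and 37.6% of members, against 97.7% of other probes, were well above background in both channels of all 19 arrays. The lowest liver of a member was above background by this mark in 1002 of 2189 members. Of 571 members with a liver at −2 or lower, that liver passed in 66. Ratios this low therefore give a direction more firmly than a size.

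**Figure D1:**
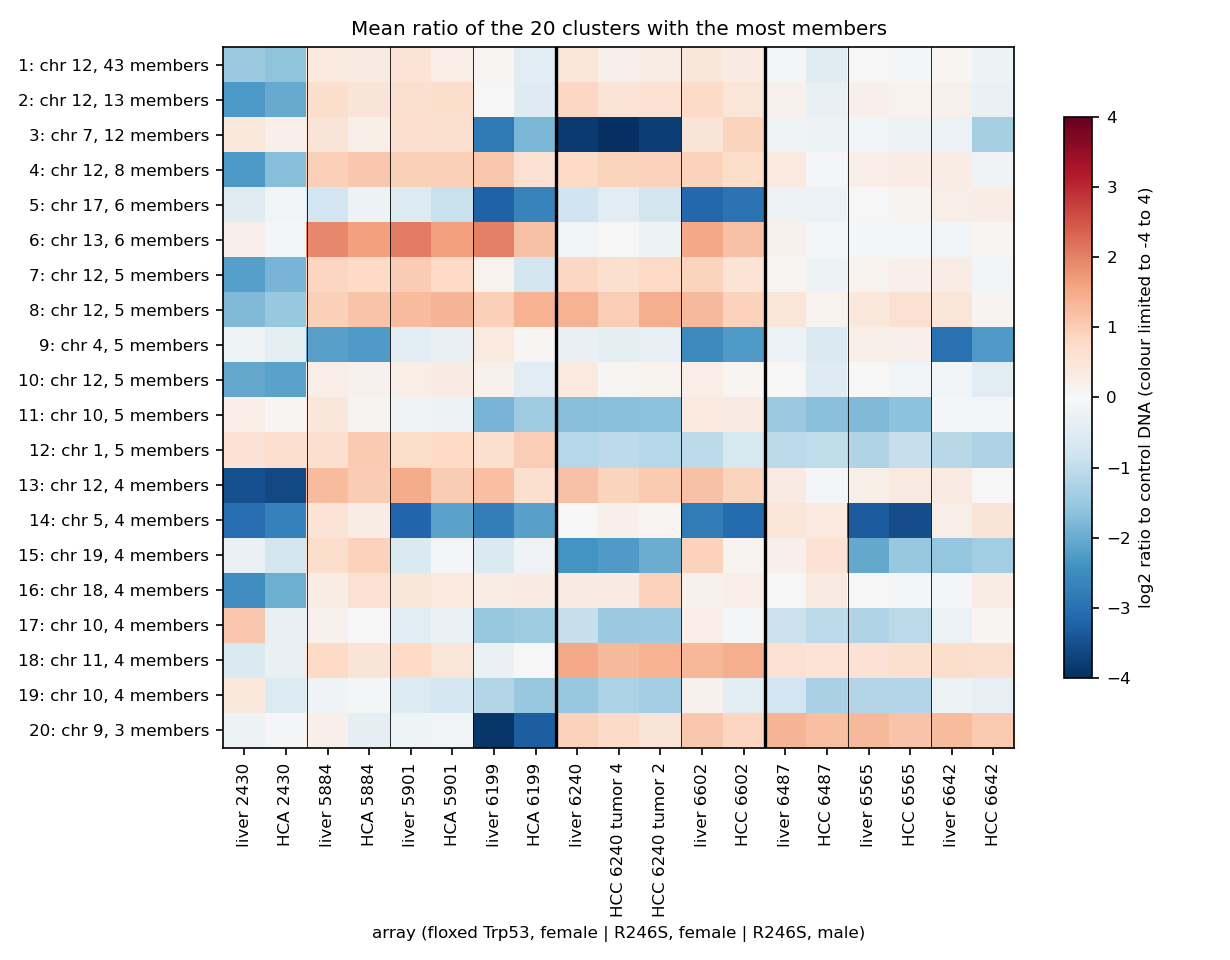
Mean log2 ratio to control DNA (color) of the 20 clusters with the most members (rows, with chromosome and number of members) in the 19 arrays (columns, liver and tumor of a mouse side by side; thick lines part floxed females, R246S females and R246S males). Low (blue) cells of a liver recur in the tumor of the same mouse, as in cluster 3, where liver 6240 and its 2 HCCs lie between −4.09 and −3.75.

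The largest cluster was at the distal end of chromosome 12. At chr12:116175726-117190625, 43 of 86 probes were members. The cluster mean was −1.48 ± 1.39 (SD over probes) in liver 2430, 0.05 in liver 6199 and between 0.39 and 0.53 in the other 4 livers. Liver 2430 stood below all others, and its HCA was at −1.62. The male livers were near the control, between −0.07 and 0.08. Further clusters with the same split lay along the chromosome. At chr12:115151862-115493241 (13 members) liver 2430 was at −2.28 and the others between −0.02 and 0.84, and at chr12:104999542-105185363 (8 members) it was at −2.31 and the others between 0.79 and 1.07. The difference was widest at chr12:100168918-100372624 (4 members), with −3.52 in liver 2430 and 1.17 to 1.48 in the others. From 89268164 to 117864487 there were 8 clusters in which 2430 was the liver at least 1 below the median. This stretch of 28.6 Mb held 121 members, or 4.37% of its probes. In 95 of them the liver pattern recurred in the tumors at an r of at least 0.8, and in 83 of these 95 liver 2430 was the lowest. The mean of these 83 members was −2.37 in liver 2430 and −2.37 in its HCA. The choice of these members by r makes tumor and liver alike, so the means are a description. The mean was 0.46 in liver 6199 and −0.19 in its HCA, and 0.87 to 0.97 in the 4 other livers. The 3 male livers were between 0.22 and 0.24, which is lower than the females other than 2430, but these livers were set against other control DNA.

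Mice 6199 and 6240 shared a deep loss of signal on proximal chromosome 7. At chr7:26789486-26973242 all 12 probes in a row were members. The mean was −2.84 ± 1.24 in liver 6199 and −3.84 ± 1.52 in liver 6240, and between 0.41 and 0.66 in the other 4 female livers. The HCCs of 6240 were at −4.09 and −3.75. The HCA of 6199 was at −1.83, which is 1.01 above its liver. The male livers lay between −0.22 and −0.10, and HCC 6642 was at −1.32 ± 0.39 against −0.22 ± 0.31 in its own liver, while HCC 6487 and HCC 6565 were both at −0.21.

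Other clusters split the mice in other ways. At chr17:36276063-36339721 (6 members), on the chromosome that carries the major histocompatibility complex, liver 6199 was at −3.24 ± 1.01 and liver 6602 at −3.14 ± 1.42. The other livers of females were between −0.81 and −0.50. At chr13:65871408-66702931 (6 members) livers 5884, 5901, 6199 and 6602 were at 1.53 to 2.04, above 0.20 in 2430 and −0.11 in 6240. All 3 male livers were between −0.10 and 0.18 there. At chr5:138937828-138957531 all 4 probes were members, and livers 2430, 5901, 6199 and 6602 lay between −3.17 and −2.75 while 5884 and 6240 were at 0.54 and 0.01. Among males, liver 6565 was at −3.34 and livers 6487 and 6642 at 0.47 and 0.22, so both levels occurred under either control DNA. At chr9:19092344-19131036 (3 members) liver 6199 alone was low, at −3.90 ± 0.72. The HCA of 6199 was on the side of its liver at all 4 sites, at −2.67, 1.16, −2.18 and −3.29.

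Clusters with the same pattern could lie far apart on a chromosome. On chromosome 4 there were 3 clusters from 66855651 to 76032816 with livers 5884 and 6602 low, and 12 members in this 9.18 Mb that recurred in the tumors at an r of at least 0.8 all had these livers as the lowest. Their mean was −2.61 in liver 5884, −3.37 in liver 6602 and between −0.30 and 0.74 in the other female livers. Male liver 6642 was at −3.70, liver 6487 at −0.41 and liver 6565 at 0.40. On chromosome 9, from 34521876 to 47479034, livers 5901 and 6199 were the lowest in 30 of 35 such members, with means of −1.60 and −1.63 against −0.05 to 0.62 in the other 4. On proximal chromosome 12, from 19709659 to 35558674, livers 2430 and 6602 were the lowest in 16 of 18, with means of −2.04 and −2.24. These members were also picked by r. A shared low liver did not always make 1 pattern. Between the 2 clusters with 2430 low on chromosome 4, from 25214479 to 111952916, liver 2430 was the lowest in only 7 of 34 such members.

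This likeness over distance was measured for pairs of members. For pairs under 10 kb apart the values of the 6 mice had a mean correlation of 0.721 in livers and 0.728 in tumors (70 pairs). It was 0.256 and 0.257 for pairs 1 to 10 Mb apart (20792 pairs) and 0.234 and 0.221 for 10 to 20 Mb. It then fell to 0.133 and 0.110 for 20 to 40 Mb and to 0.0618 and 0.0445 for pairs on different chromosomes. Probes that were not members had mean correlations between −0.013 and 0.037 at all distances from 10 kb up. These correlations are over 6 mice and share arrays, so they are given as a description.

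**Figure D2:**
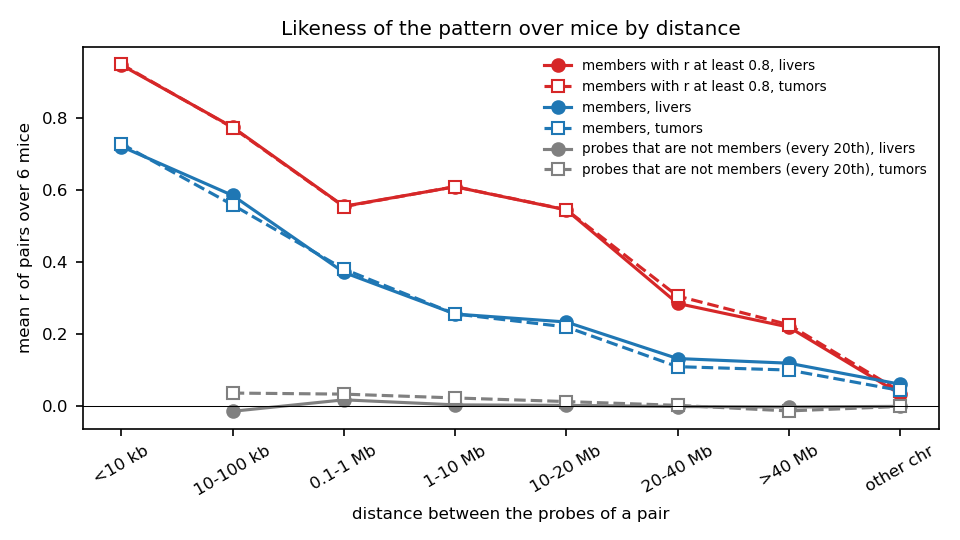
Mean correlation over the 6 female mice of pairs of probes (vertical axis, Pearson r) by their distance (horizontal axis) in livers (filled circles) and tumors (open squares), for all members (blue), members whose liver and tumor values correlate at 0.8 or more (red) and other probes (gray; bins under 20 pairs left out). Members fall from 0.721 under 10 kb to 0.0618 on different chromosomes in livers, and other probes stay near 0.

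Whether the differences between livers recurred in tumors was asked next. Tumor arrays had no part in the choice of members. Values were centered on the chromosome median of the array, so that gains and losses of whole chromosomes did not enter, and then on the mean over the 6 livers or the 6 tumors. Over members, HCA 2430 correlated with its own liver at 0.75, HCA 5884 at 0.51, HCA 5901 at 0.54 and HCA 6199 at 0.70. HCC tumors 4 and 2 of mouse 6240 did so at 0.80 and 0.84, and HCC 6602 at 0.77. With the HCCs of 6240 averaged, the 6 tumors had a mean r of 0.686 with their own liver and −0.134 with the livers of other mice, where the highest was 0.0652. Centered on their mean, the 6 livers cancel out, so a high r with the own liver forces the others down. The negative values are thus not a separate result, and they widen the difference. In all 6 tumors the own liver gave the highest r. The difference of 0.820 had an exact two-sided permutation p of 0.00139 over all 720 assignments of tumors to livers, the smallest p that this design can give. The probes that were not members had 0.146 and −0.0321, a difference of 0.178 with an exact p of 0.108, and in 3 of 6 tumors the own liver gave the highest r. The choice left these probes with a smaller spread over livers, so their contrast with members is not independent of it.

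**Figure D3:**
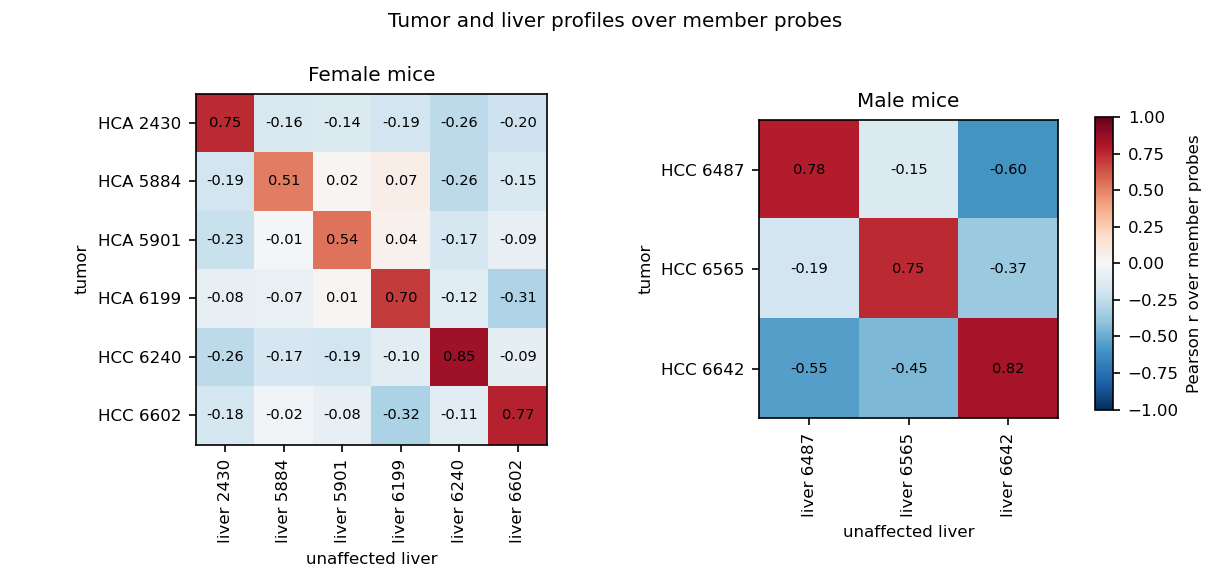
Pearson r over member probes of each tumor (rows) with each unaffected liver (columns), for 6 female mice, with the 2 HCCs of mouse 6240 averaged (left), and 3 male mice (right). The diagonal, a tumor with its own liver, holds 0.51 to 0.85 in females and 0.75 to 0.82 in males, and every other cell is at or under 0.07. Centering on the mean over mice lowers the other cells.

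The recurrence was closer in clusters than in single members and held between livers and tumors of the same scan day. Over members in clusters the mean r with the own liver was 0.831, and over the others 0.658. HCA 2430 and its liver, both scanned on day 1, correlated at 0.75, against −0.16 and −0.14 with the day 1 livers of 5884 and 5901. HCA 5884 had 0.51 with its own day 1 liver and −0.19 and 0.02 with those of 2430 and 5901. On day 3 the HCCs of 6240 had 0.80 and 0.84 with their liver and −0.12 and −0.06 with that of 6602, and HCC 6602 had 0.77 and −0.11. Values with the livers of other mice are here too lowered by the centering. The HCCs of mouse 6240 correlated with each other at 0.891. The slope of tumor on own-liver values was 0.34 to 0.60 in the HCAs and 0.69 to 0.78 in the HCCs of females, and over members in clusters 0.55 to 0.80 and 0.84 to 0.93. HCAs and these HCCs also differ in scan day and genotype, and these cannot be told apart.

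In the male mice, which the choice of members did not use, members also varied more often than other probes. Of the members, 483 (22.1%) were in the top 1% of SD over the 3 male livers, against 1% of all probes. For members in clusters it was 46 of 242 (19.0%). Members were dimmer than other probes, and the part of noise in these shares was not tested. HCC 6487, HCC 6565 and HCC 6642 correlated with their own liver at 0.78, 0.75 and 0.82 and with the livers of other males at −0.60 to −0.15. Centering on the mean of the 3 males forces the latter values down. With 3 mice the exact permutation p of the difference (1.17) was 0.167, the smallest this design allows.

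Single members did not all recur. The liver and tumor values of the 6 female mice correlated at a median r of 0.676 over 2179 members measured in all tumors, with quartiles of 0.120 and 0.933. An r of at least 0.8 was found for 922 members (42.3%), against 5.47% of all probes. It was found for 189 of 240 members in clusters (78.8%) and 733 of 1939 others (37.8%). Members were chosen for wide spread over these livers, which leaves more room for a high r, so the excess is not independent of the choice. At the other end, 876 members (40.2%) had an r under 0.5 and 447 were below 0, so the tumors repeated the liver pattern for the first group and not for the second. Whether either was inherited was not tested, since liver was the only normal tissue. Liver 5884 lay farthest from the mean in 379 of the 876, and liver 2430 in 329 of the 922. The members under 0.5 had a control signal of 0.354 times the array median, against 0.575 times for those of at least 0.8, and the sample channel carried 85.2% and 97.4% of their variance. In male livers, 13.9% and 29.9% of them were in the top 1% of SD. Of the 51 clusters, 46 had an r of at least 0.8 between the liver and tumor means, and 2 were under 0.5. These were chr1:38607884-38665553, at 1.65 ± 2.28 (SD over 3 probes) in liver 2430 and 0.35 ± 0.27 in its HCA, and chr9:44540165-44587063, at 1.52 ± 4.30 in liver 5901 and −0.64 ± 0.60 in its HCA. In each a single probe carried the liver mean, A_67_P04069131 with 4.28 in liver 2430 and A_67_P01919156 with 6.42 in liver 5901.

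**Figure D4:**
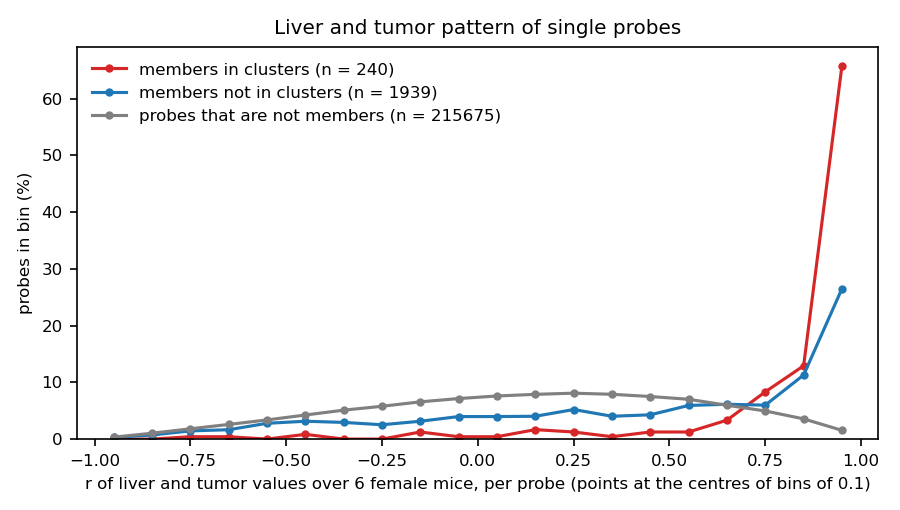
Share of probes (vertical axis, percent) by the correlation of their liver and tumor values over 6 female mice (horizontal axis, bins of 0.1), for 240 members in clusters (red), 1939 other members (blue) and 215675 probes that were not members (gray). Both groups of members pile up at the right end, and 78.8% and 37.8% of them lie at 0.8 or higher.

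The tumor was compared with the unaffected liver over all mice as well. With limma over all autosomal probes, no member and none of the 218857 probes tested differed between 9 tumors and 9 livers at an adjusted p under 0.05 (0% of all probes). At an unadjusted p under 0.05 there were 60 of 2161 members (2.78%), against 7.6% of all probes. This fit had a term for the control DNA and none for the mouse, so it did not use the pairing. Members were chosen for their spread between mice, which enters the error of this fit. Their lower share is therefore not a result about members. With the mouse as a block no member was called either, and 263 members (12.2%) had an unadjusted p under 0.05, against 11% of all probes. Over the 20 clusters with the most members, tumor and own liver differed by 0.5 or less in 173 of 200 pairs, with a median difference of 0.229, and by more than 1 in 4 pairs. These were HCC 6642 and HCA 6199 at the chromosome 7 cluster above, HCA 5901 at the chromosome 5 cluster (−2.15, against −3.17 in liver), and HCA 2430 at chr10:17649171-17752858 (−0.28, against 1.07).

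The link to Trp53 genotype was first counted in livers. The R246S livers 6240 and 6602 did not overlap with the 4 floxed livers in 652 members (29.8%), and neither did they in 29.9% of all eligible probes, so members were not set apart by this count. With normexp background correction, for which members were chosen again, the count was 1344 (61.4%), against 29.8% of all probes. For the same members it was 996 (45.5%) without 6240, against 50.2%, and 1187 (54.2%) without 6602, against 61.8%. Either leaves a single R246S liver, which fails to overlap more easily, so these shares cannot be set against the first. Over all 6 livers in the main setting, R246S livers were higher in 567 members and lower in 85, against 14.6% and 15.4% of all probes. With members chosen again, this split was 1330 and 14 with normexp, 454 and 406 without background correction, and 286 and 209 with loess. Between the f/f and f/+ livers, 708 members (32.3%) did not overlap, against 30.7% of all probes. This split uses fewer livers, which fail to overlap more easily, so its share cannot be set against that of R246S and floxed livers. When both livers and tumors had to be apart in the same direction, 222 of 2179 members (10.2%) were, with R246S higher in 175 and lower in 47, against 3.16% of all probes. This count also asks for recurrence in tumors, and an r of at least 0.8 was found in 42.3% of members, against 5.47% of all probes. No other split of the mice was counted this way, so the excess cannot be read as a link to genotype. All 5 R246S livers, males included, were apart from the 4 floxed livers in 155 members (7.08%), against 3.37% of all probes. The female values in this count also chose the members, and the males had other control DNA. No other split was counted with the males, so this excess cannot be read as a link to genotype either. Of these 155, 25 were on chromosome 18, 20 each on chromosomes 1 and 15 and 18 on chromosome 6. An example of such a split was chr1:173448669-173494003 (5 members). The floxed livers were at 0.59, 0.68, 0.75 and 0.65 and their HCAs between 0.69 and 1.05. The R246S females were at −1.13 and −1.03 in liver and between −1.14 and −0.65 in HCC, and the R246S males between −1.20 and −1.08 in liver and −1.24 and −0.93 in HCC. No sample of one genotype reached the level of the other, and mouse 6487, scanned on day 2, was at −1.08 in liver and −1.01 in HCC.

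In tumors the groups could be tested, although on the mice whose livers chose the members. The test sets HCCs of R246S mice, scanned on day 3, against HCAs of floxed mice, scanned on days 1 and 2, and cannot tell genotype, tumor type and scan day apart. Of 220424 probes, 36 (0.0163%) differed between the HCCs of the 2 R246S mice and the 4 floxed HCAs at an adjusted p under 0.05 (limma, Benjamini-Hochberg), and 34 of them were members (1.56% of 2179). With members chosen again, the count was 2 of 3 called probes with normexp and 89 of 139 without background correction. It was 64 of 96 with the HCCs of 6240 as separate samples and 21 of 21 without 6199. The share of members among called probes thus changed with the setting. The ratio was higher in R246S tumors in 24 of the 34 and lower in 10. This balance rested on single mice, with 16 higher and 27 lower without 6240 and 24 each way without 6602. The difference was 1.20 to 3.06 in the 15 members whose lower group was well above background on every array. In 11 others the lower group was above background on no array, so their values give a direction more firmly than a size. At an unadjusted p under 0.05 there were 416 members (19.1%), against 3.06% of all probes. The livers differed in the same direction in all 34 and did not overlap in 31. Members chosen for their spread between livers of these mice had more room to differ in their tumors, so the 34 are not independent evidence. The 34 lay on 9 chromosomes, 26 of them in 3 stretches on chromosomes 6, 15 and 18.

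The stretch on chromosome 15 held 12 called members between 30220337 and 43655217. Their mean was −2.47, −2.46, −2.24 and −2.40 in HCAs 2430, 5884, 5901 and 6199 and −2.98 to −2.62 in the livers of these mice. In R246S females it was 0.84 and 0.44 in tumors 4 and 2 of 6240, 0.67 in HCC 6602, and 0.56 and 0.22 in their livers. Males 6487 and 6565 were at 0.28 and 0.31 in HCC and 0.02 and 0.19 in liver. Male 6642, also R246S, was at −2.37 in HCC and −2.87 in liver, within the range of the floxed mice. Several of the 12 members were well above background in no floxed HCA, so the low means give a direction more firmly than a size. At A_67_P08351981, the last probe of the stretch (chr15:43655158-43655217), R246S exceeded floxed tumors (adjusted p of 0.000910 by limma), with HCAs, of which 0 of 4 were well above background, between −4.13 and −2.61, R246S HCCs of females between 0.88 and 1.01, and HCC 6642 at −4.55. Over the whole stretch 39 probes were members (3.18%), and in all 25 that recurred in the tumors at an r of at least 0.8 the R246S livers of females were the higher. The stretch was bounded by probes called in the tumors of these mice, and the 25 were picked by r. The choice thus favors this split of the livers, and the count is a description.

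On chromosomes 6 and 18 all 5 R246S mice were on one side. The 8 called members between 17321627 and 29119294 of chromosome 6 had a mean of −1.04 to −0.69 in the 4 HCAs, 1.23 to 1.76 in the HCCs of R246S females and 1.56 to 2.36 in the HCCs of males. The livers were at −0.98 to −0.43, 1.13 to 1.39 and 1.54 to 2.06. At chr6:17595576-17675628, a cluster of 3 members among 11 probes, the R246S livers were between 0.98 and 1.47 and the floxed livers between −0.58 and −0.23. The 6 called members between 6434876 and 12994405 of chromosome 18 ran the other way, with 0.39 to 1.40 in HCAs, −2.74 to −2.20 in the HCCs of R246S females and −2.87 to −2.57 in those of males. On both chromosomes these means include a member whose lower group was well above background on no array, which limits their size. At A_67_P03408286 (chr18:9259786-9259845) R246S tumors were lower (adjusted p of 0.000806 by limma). HCAs lay between 0.06 and 1.56 and R246S HCCs, of which 0 of the 3 from females were well above background, between −5.73 and −4.54. This stretch of 6.56 Mb had the highest share of members of the 3, 28 of 558 probes (5.02%). Of 19 members in it that recurred in the tumors at an r of at least 0.8, the R246S livers of females were the lower in 13 and the higher in 5. These members too were picked by r within bounds set by called probes, so the counts are a description.

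Among the 34 called members, the male HCC 6487, the HCC of an R246S mouse scanned on day 2, was on the R246S side of the midpoint between the female genotypes in 28, HCC 6565 in 31 and HCC 6642 in 18. One of the 34 was not measured in HCC 6487 and another not in HCC 6642. All 3 male HCCs were beyond every floxed HCA in 22. The males were set against other control DNA than the females, and its part in these counts was not tested.

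**Figure D5:**
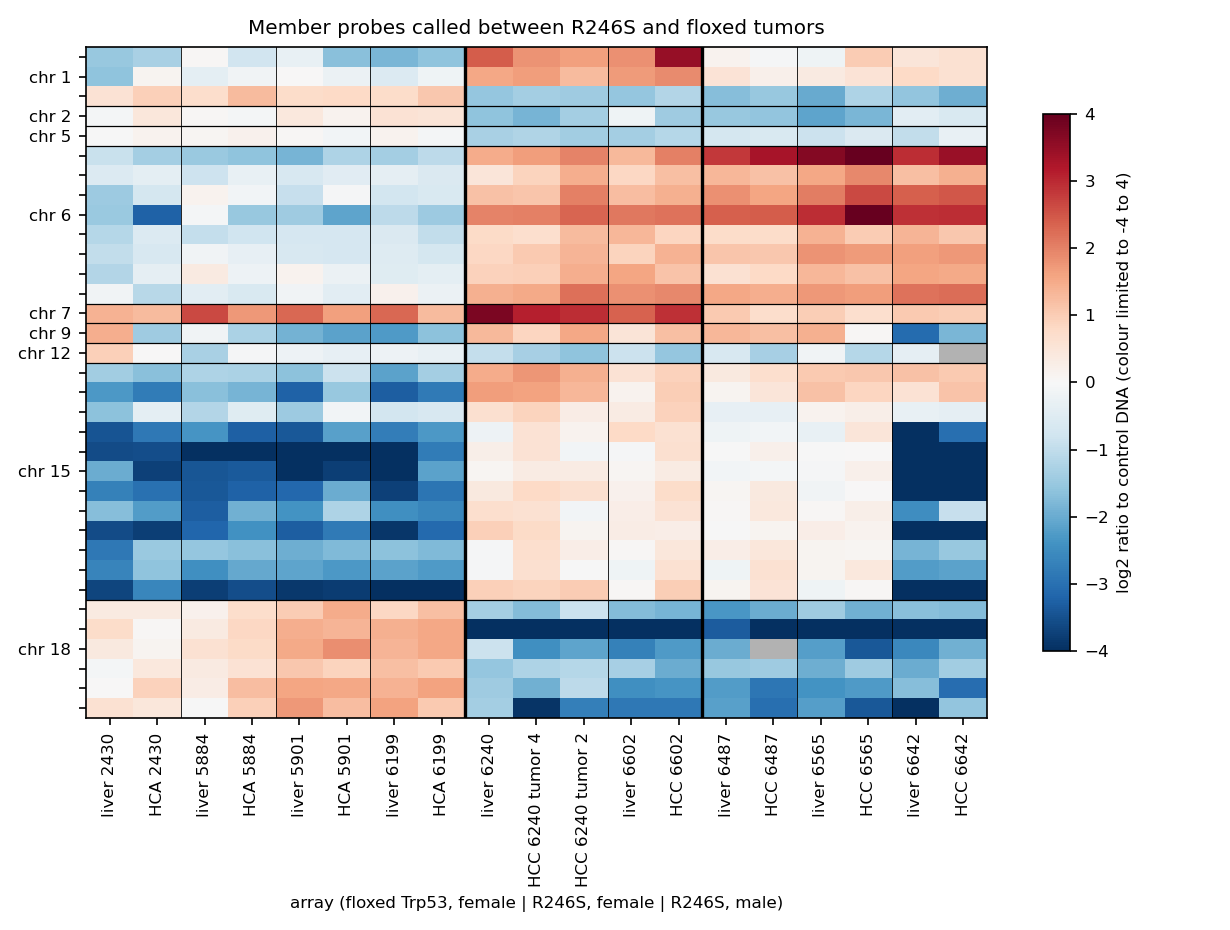
Log2 ratio to control DNA (color, limited to −4 to 4; gray, not measured) of the 34 members called between tumors of R246S and floxed mice (rows, in genome order, horizontal lines between chromosomes) in the 19 arrays (columns, as for the clusters). Chromosomes 6 and 18 split all floxed from all R246S arrays, while on chromosome 15 most rows of male 6642 have the low level of the floxed mice.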

How the data were processed

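Each array was hybridized with Cy5-labeled sample DNA and Cy3-labeled control DNA. The deposited log10 ratios and the processed signals of both channels were made by the authors with Feature Extraction 10.5.1.1, with background subtraction and linear dye normalization and no lowess, per the file headers on NCBI build 37. The deposited median intensity of spot and background was used only for alternatives. A combined table, deposited for the whole series, repeats these log10 ratio values. Here ratios were converted to log2, outlier spots left out, saturated spots kept, spots of a probe averaged, and arrays centered on the autosomal median, which all printed ratios use. The tests in tumors and the correlations of tumor with liver used values centered on each chromosome median. Tests were limma 3.58.1 in R 4.3.3 over all autosomal probes and exact permutation of samples, with the steps tested on simulated data. The clusters described were the 20 with the most members, ties going to the wider range over livers, plus those a result turned on, chosen after their values were seen. Stretches and the r of 0.8 were also chosen after the data were seen. Members and lists were chosen with earlier results of these data known. The labels give no cultures or litters. Limma p-values rest on samples of all 9 mice for tumor against liver and on tumors of 6 females for genotype. Exact p-values come from the assignments of tumors to livers over 6 female or 3 male mice. These numbers of mice limit precision. Each mouse gave tumor and liver. This pairing was used by the permutation and by the tumor and liver fit with the mouse as a block, but not by the main limma fit. No gene positions or probe sequences were used here.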

Additional observations from a re-analysis of the deposited data

Results flagged for a closer look

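In 7 of 50 groups of per-array values examined (tumor means of the 20 largest clusters, recurrence measures of the tumors and counts of low or high members of the livers), 1 sample lay far from the others of its group by Dixon's ratio. Chance gives about 1 in 20 for unselected groups, a rate that cannot be applied here, since the clusters were chosen for differences between livers of these mice and 3 of the 7 are HCA 2430 on distal chromosome 12. HCA 2430 was the lowest of the 4 HCAs at 4 clusters, with means of −1.72 at chr12:104999542-105185363, −1.51 at chr12:89268164-89574165, −3.61 at chr12:100168918-100372624 and −1.96 at chr18:59783889-60003670. HCA 6199 was the lowest at chr9:19092344-19131036, with −3.29. HCC 6602 was the lowest of the 6 HCCs at chr17:36276063-36339721, with −2.94, and the highest at chr13:65871408-66702931, with 1.17. In each case the liver of the mouse, which helped to choose the cluster, deviated in the same direction from the livers of the other mice with that tumor type. At the chromosome 13 cluster, however, liver 6602 (1.53) was below livers 5884, 5901 and 6199 (1.93 to 2.04). The males among the HCCs were set against other control DNA.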

How the results depend on the processing

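The closer recurrence of a tumor in its own liver kept its direction and its side of the threshold under all 20 alternatives in females, from 0.362 (normexp) to 1.09 (cluster means), and from 0.801 to 0.915 without each mouse in turn. Keeping only pairs of the same scan day left out 5901 alone, so it repeats the fit without 5901, and both are among the 20. It gave 0.899 with an exact permutation p of 0.00833. The assignments still crossed scan days, so this p does not take scan day into account. In males the difference was 0.339 to 1.37 over 6 alternatives, and with normexp the exact permutation p rose to 0.667. Clusters numbered 27 and 139 with the top 0.5% and 2%, and 29 and 127 with gaps of up to 2 and 20 probes, against 51, and 37 to 59 without 1 liver. The share of members in clusters was 14.1% without background correction, 12.6% with loess, 13.5% with the top 2%, 8.36% by median absolute deviation, 6.82% for probes well above background, 6.44% and 27.0% with gaps of up to 2 and 20 probes, and 6.26% (without 2430), 9.36% (without 6199) and up to 12.9% (without 5884) without 1 liver. Members with livers apart by Trp53 genotype numbered 1344 (61.4%) with normexp, against 29.8% of all probes. Without 1 liver they numbered 733 (33.5%, without 6199, against 34.0%) to 1187 (54.2%, without 6602, against 61.8%). Leaving out 6240 (996, 45.5%, against 50.2%) or 6602 moved the count by over 1.5 times, and the share of all probes rose with it. Either leaves a single R246S liver, which fails to overlap more easily, so these rises do not measure the weight of those mice. Members called by genotype in tumors numbered 89 without background correction, 2 with normexp, 64 with the HCCs of 6240 apart, and 21 (without 6199) to 48 without 1 mouse, against 34. Between tumor and liver, 3 of 2161 members (0.139%) were called with centering on the autosomal median only, against 8600 of 218857 probes (3.93%), and 0 without each mouse in turn and with the mouse as a replicate block. The fit with the autosomal median had no term for the mouse, so its lower share in members is not a result about them. Members were chosen again with normexp, without background correction and with loess, so those values need not cover the same probes. The deposited table gave the reported values. The causes were not tested. Dim signal limits low ratios, most of all in members.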
